A study of Mus musculus with 14 samples.

Results

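The genes described here are 34 markers of lymphocytes and natural killer (NK) cells, out of 21896 protein-coding genes of the RefSeq annotation, and the measurement is the openness of the chromatin in and around them in mouse liver. They comprise 14 T cell genes, 4 B cell genes, 11 NK and cytotoxic genes, and 5 genes shared between lymphoid classes. An open interval was taken as belonging to a gene if its midpoint lay inside the gene, and otherwise if that gene was the nearest protein-coding gene within 50 kb. By this rule 99 of 88203 intervals of the chow table lay at 23 of the 34 genes, and 97 of 105801 intervals of the high-fat table lay at 22 of them.

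Chromatin was profiled by ATAC-seq, in which a transposase cuts and tags accessible DNA, using nuclei of frozen liver (50 mg each) from 14 females. All animals carried floxed alleles of Matr3, which encodes the nuclear RNA- and DNA-binding protein matrin-3, and the knockout littermates (LKO) also carried an Albumin-Cre transgene, whose promoter is active in hepatocytes rather than in blood cells. The floxed mice (flox) are the controls. The animals were kept from 7 weeks of age for 16 weeks on chow (3 LKO and 3 flox mice) or on a high-fat diet with 60 kcal% fat (4 LKO and 4 flox mice), and the high-fat mice are stated to have been fasted for 12 h at the end. Each library was read as 1 mouse. No strain is named in the labels.

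Lymphocytes are a minority of liver nuclei beside hepatocytes, and the liver is known for being rich in NK cells and other innate-like lymphocytes. T cells are defined by the CD3 complex and the kinases that signal from it, B cells by the immunoglobulin-associated CD79 chains and the factor PAX5, and NK cells by activating and inhibitory lectin-like receptors together with perforin and granzymes. In whole tissue, fewer cells of a type and less open chromatin per cell cannot be told apart, and an interval near a lymphocyte gene can also be open in hepatocytes.

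An interval over the RefSeq promoter window (250 bases before to 50 after the start) was found in both tables for Clec2d, Tcf7, Gata3 and Ikzf1. The start is the one RefSeq gives for 1 transcript of the gene. At Clec2d the 250 bases before it end at the outer bound of the gene. At the other three genes they lie inside the gene's outer bounds and can hold transcribed sequence of longer transcripts. The Tcf7 window, chr11:52283015-52283264 on the minus strand, begins 119 bases inside that bound, the Ikzf1 window, chr11:11685675-11685924 on the plus strand, 713 bases inside, and the Gata3 window, chr2:9878601-9878850 on the minus strand, 9103 bases inside. The Clec2d window, chr6:129180365-129180614 on the plus strand, is printed because the calls described below lie at this gene. It is read 5′ to 3′ on the gene's strand (RefSeq, build GRCm38.p6, to which mm10 corresponds), in capitals where it falls inside the chow interval.
Clec2d: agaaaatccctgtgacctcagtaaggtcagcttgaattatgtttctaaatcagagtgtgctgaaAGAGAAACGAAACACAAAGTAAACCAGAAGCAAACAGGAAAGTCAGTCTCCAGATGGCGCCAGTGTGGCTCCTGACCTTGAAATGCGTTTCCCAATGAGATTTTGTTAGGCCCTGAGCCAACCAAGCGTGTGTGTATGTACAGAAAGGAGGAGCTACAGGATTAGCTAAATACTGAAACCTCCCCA
The Clec2d window had 44.8% G and C, below the median of 55.6% over 21262 protein-coding promoter windows (quartiles 47.2% and 64%). Those of Gata3, Tcf7 and Ikzf1 had 70%, 76% and 82%. The chow interval covered 186 of the 250 bases at Clec2d, 218 at Tcf7 and all of them at Gata3 and Ikzf1.

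Of the 25 member genes with a window in the RefSeq promoter table, 4 (16%) had an interval over it on chow and 5 (20%) with high-fat feeding, where Lef1 was added. Over all 17491 genes with a window the shares were 55.4% and 56.7%. No window of the 2 B cell genes or the 8 NK and cytotoxic genes tested was covered in either table, against 8 of 8 hepatocyte genes in both. Other lymphocyte genes were covered more or less often by class: 5 of 16 other B cell genes in both tables, 2 and then 3 of 12 other T cell genes, and 2 and then 3 of 16 other NK genes, in the order chow and high-fat. Kupffer cell and macrophage genes had 3 of 11 covered on chow and 6 of 11 on the high-fat diet. Low counts were also seen outside the lymphoid classes, with 0 of 7 neutrophil genes covered on chow (2 of 7 with high-fat feeding) and 0 of 4 biliary genes in either table.

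Counting any interval within 50 kb, 67.6% of the members had one on chow and 64.7% with high-fat feeding, against 73.1% and 74.7% of all protein-coding genes. Within the gene itself the share was 50% of members in both tables, against 61.5% and 63.6% of all genes. The 10 genes with no interval in either table included defining markers of every class: Cd3g, Cd8a and Cd8b1 of T cells, Cd79b and Ms4a1 (CD20) of B cells, Ncr1, Klrd1, Gzma and Nkg7 of NK cells, and Ikzf3, a lymphoid Ikaros-family factor. Cd79a had an interval on the high-fat diet only, and Runx3 and Gzmb on chow only. A gene with no interval has no count in these tables, so no level is given for it. Intervals of members other than Clec2d had a median level of 6.69 CPM (counts per M reads in intervals, after TMM scaling) on chow and 6.73 CPM on the high-fat diet, against 7.97 and 6.74 CPM over all intervals.

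Library totals ran from 15.5 to 35 M reads in intervals on chow and from 7.59 to 10.4 M on the high-fat diet. The chow libraries numbered 2, 1 in each genotype, were the shallowest of that diet, and within their genotype they held the highest sums of T cell genes, of B cell genes and of shared genes other than Clec2d. Chow columns name only a genotype and a number, and in the main tests they were used by genotype alone. All 11 genes of the hepatocyte list, markers of the main cell of the labelled tissue, had intervals. Matr3 had 7 intervals in each table and none was called (lowest adjusted p 0.766 on chow and 0.228 with high-fat feeding). The position of the deleted part of Matr3 is not known from the labels, and its absence therefore could not be checked here.

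Knockout and floxed livers were compared within each diet by edgeR's quasi-likelihood test over all intervals, and again over counts summed per gene, with Benjamini-Hochberg adjustment and a threshold of 0.05. An interval or gene past it is called. Log2 fold changes are LKO over flox, their errors are standard errors (SE), and levels are CPM. On chow 0 of the 99 member intervals were called, against 0.0227% of all intervals. By edgeR 18 of them had an unadjusted p under 0.05 (10 at Clec2d and 8 elsewhere), where 6.77% of all intervals did. DESeq2 called 7, limma voom 3, and edgeR with the library number as a block 5, every one of them at Clec2d and lower in LKO. Those settings called 0.545%, 0.631% and 0.134% of all intervals lower (481, 557 and 118 intervals). The block was not planned, and the library numbers are not known to pair libraries. None of the 23 genes was called on summed counts, where 0% of 16010 genes were. An unadjusted p under 0.05 was found for 3 of the 23 (Cd4, Bcl11b and Clec2d) and for 6.55% of all genes. On the high-fat diet 4 of 97 member intervals were called, all at Clec2d and lower in LKO, against 0.751% of all intervals called and 0.303% called lower. Clec2d was also the 1 member gene of 22 called on summed counts, against 0.324% of 16356 genes. Of the 97 high-fat intervals, 18 had an unadjusted p under 0.05 by edgeR (14 at Clec2d and 4 of 72 elsewhere). So did 10801 of all 105801 intervals.

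**Figure D1:**
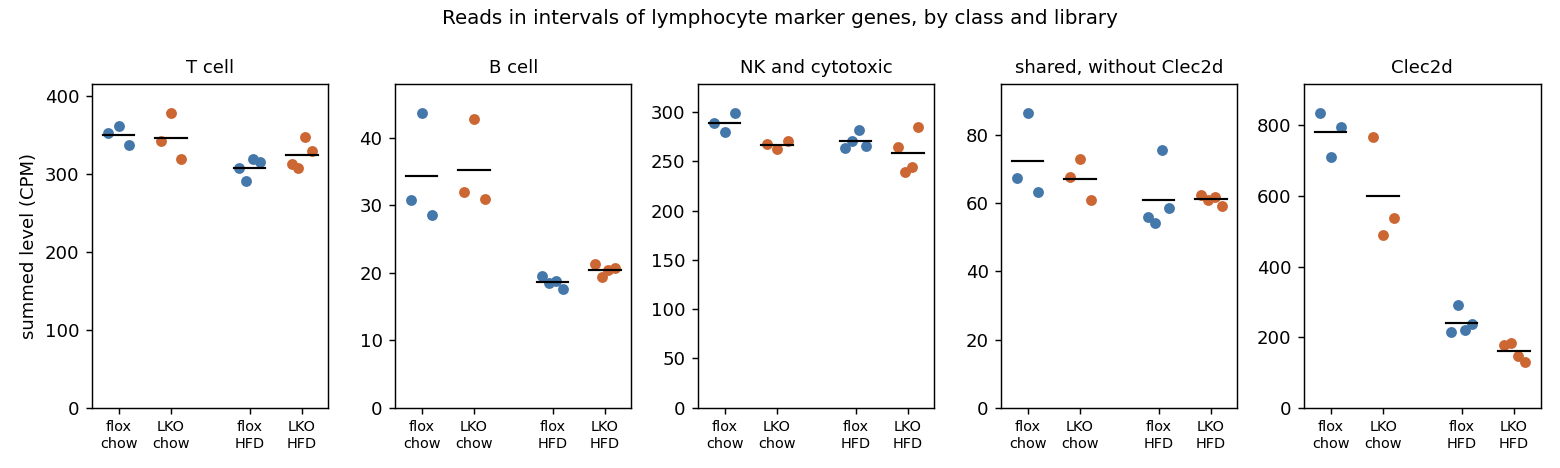
Summed level in CPM (vertical axes, each from 0) of the intervals of each class, with 1 point per library, flox in blue and LKO in orange, and black bars for group means. T cell sums overlapped between flox and LKO in both diets, NK sums on chow were lower in LKO (263 to 271 CPM) than in flox (280 to 299 CPM) with no interval called, and Clec2d was lower in all 4 high-fat LKO libraries (130 to 182 CPM) than in the 4 flox libraries (215 to 290 CPM).

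T cell genes as a group had overlapping levels in the genotypes. The 40 intervals of 11 T cell genes summed to 353, 362 and 337 CPM in the chow flox libraries and to 343, 379 and 320 CPM in the LKO libraries. Their median log2 fold change was -0.14 (26 lower, 14 higher), against -0.0032 over all intervals of the table. That median ran from -0.23 without LKO 2 to -0.02 without flox 2. In high-fat livers 38 intervals summed to 308, 291, 319 and 316 CPM in flox and to 313, 308, 347 and 330 CPM in LKO, with a median log2 fold change of 0.06 against -0.0039 over all intervals. The groups overlapped in both diets, and no T cell interval was called in either.

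Cd4, the co-receptor of helper T cells, had the largest positive difference among members on chow. The sum of its 3 intervals, all inside the gene, was 34.1, 31.1 and 31.1 CPM in flox livers and 58.6, 39.1 and 45.4 CPM in LKO livers. Each LKO library lay above each flox library, but the log2 fold change of 0.56 (SE 0.15) did not pass over all genes (edgeR adjusted p = 0.716). With high-fat feeding the sums of 2 intervals were 26.7, 34.1, 27.4 and 27.4 CPM in flox and 30.7, 28.6, 29.8 and 26.4 CPM in LKO, with a log2 fold change of -0.01 (SE 0.11).

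Bcl11b, a factor required for T cell commitment, had a single weak interval on chow, at chr12:107998686-107999186 inside the gene. It held 4.39, 4.38 and 3.03 CPM in flox and 2.47, 2.63 and 2.12 CPM in LKO. The groups did not overlap, and the gene's log2 fold change of -0.73 (SE 0.25) had an edgeR adjusted p of 0.716. The interval assigned to Bcl11b in the high-fat table was a different one, 30.3 kb from the gene, with a log2 fold change of -0.10 (SE 0.23).

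Cd247, the CD3 zeta chain, is the signalling subunit of the T cell receptor and also signals from activating receptors of NK cells. Its 7 high-fat intervals, all inside the gene, summed to 45.7, 41.1, 54.0 and 51.2 CPM in flox and to 53.7, 56.7, 63.2 and 62.1 CPM in LKO. The highest flox library exceeded the lowest LKO library by a small margin, and the log2 fold change was 0.29 (SE 0.09, edgeR adjusted p = 0.21). Without LKO 1 and flox 3 together, libraries left out after the data were seen, Cd247 passed with a log2 fold change of 0.40 (edgeR adjusted p = 0.0313), as did 1.89% of all genes. For Cd247 these are the lowest LKO and the highest flox library, so leaving out either widens the difference by itself. Without flox 3 alone, 1 Cd247 interval was called higher in LKO (log2 fold change 0.70), where 1.12% of all intervals were called. On chow 8 intervals summed to 66.3, 81.4 and 58.2 CPM in flox and to 58.9, 79.0 and 56.3 CPM in LKO, a log2 fold change of -0.10 (SE 0.16). Both chow libraries numbered 2 were the highest of their group.

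Zap70, the kinase that binds the phosphorylated CD3 zeta chain, had differences of opposite sign on the diets, neither of which passed. Its 4 intervals summed to 54.3, 44.6 and 60.9 CPM in chow flox livers and to 49.5, 44.9 and 40.2 CPM in LKO livers (log2 fold change -0.27, SE 0.13, adjusted p = 0.716). In the high-fat table the sums were 57.7, 53.1, 44.5 and 49.9 CPM in flox and 60.4, 54.2, 59.3 and 54.7 CPM in LKO (0.15, SE 0.09, adjusted p = 0.624). The groups overlapped in both diets.

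Gata3 and Tcf7, the T cell transcription factors with an open RefSeq window in both tables, held the highest summed levels among T cell genes together with Cd247 and Zap70. Gata3 also acts in innate lymphoid cells, and Tcf7 encodes the WNT-responsive factor TCF-1. Gata3 summed over 7 intervals to 70.2, 75 and 76.4 CPM in chow flox and 70.9, 86.6 and 69.2 CPM in LKO (log2 fold change 0.01, SE 0.10). Under the high-fat diet it held 54.3, 48.9, 57.3 and 62.9 CPM in flox and 50.4, 55.7, 62.4 and 62.4 CPM in LKO (0.04, SE 0.09). The values of the 2 genotypes were interleaved in both diets.

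Tcf7 summed to 69.8, 65.7 and 58.0 CPM in chow flox and 52.7, 68.2 and 63.6 CPM in LKO, a log2 fold change of -0.09 (SE 0.11). In the high-fat table its 8 intervals held 65.0, 56.9, 61.8 and 60.1 CPM in flox and 58.5, 55.9, 60.5 and 64.0 CPM in LKO (-0.04, SE 0.07). The interval over its RefSeq window was its most open one on chow, at 20.2 ± 3.26 CPM in flox and 21.2 ± 4.34 CPM in LKO (SD, n = 3 each). Cd3e, Cd3d and Cd2, surface proteins of the T cell receptor complex and its adhesion partner, the kinase gene Lck and the factor gene Lef1 had gene-level log2 fold changes between -0.20 and 0.12 on chow and between -0.07 and 0.10 on the high-fat diet. The only Cd3e interval lay 13.3 kb from the gene in both tables, and no Cd2 interval on chow lay inside the gene.

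B cell genes were the sparsest class. On chow only Pax5, the factor that maintains B cell identity, had intervals. These 5 intervals, all inside the gene, summed to 30.8, 43.6 and 28.6 CPM in flox and to 31.9, 42.8 and 30.9 CPM in LKO (log2 fold change 0.02, SE 0.18). The library numbered 2 was the highest in each genotype, so the spread within a group exceeded the difference between groups.

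Among high-fat mice Pax5 held 14.5, 15.1, 13.8 and 13.5 CPM over 3 intervals in flox and 16.1, 12.7, 13.6 and 16.3 CPM in LKO (log2 fold change 0.03, SE 0.13). Cd79a, a signalling chain of the B cell receptor, had 1 interval inside the gene with 5.06, 3.41, 4.90 and 4.15 CPM in flox and 5.26, 6.62, 6.79 and 4.42 CPM in LKO. Its log2 fold change of 0.40 (SE 0.23) did not pass (edgeR adjusted p = 0.611), and the groups overlapped. The class sums were 17.6 to 19.6 CPM in flox and 19.3 to 21.4 CPM in LKO, and the 4 intervals had a median of 0.10 on the log2 scale.

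NK and cytotoxic genes had 17 intervals on chow, of which 3 lay inside their gene, and 21 on the high-fat diet, of which 5 did. On chow the class summed to 289, 280 and 299 CPM in flox and to 268, 263 and 271 CPM in LKO. The 3 LKO libraries lay below the 3 flox libraries, with a median log2 fold change of -0.17 (13 lower, 4 higher) and no interval called. The median was -0.07 without LKO 3 or without flox 1 and -0.09 without flox 2. The other NK genes went the opposite way on chow: their 42 intervals summed to 422 to 465 CPM in flox and 471 to 476 CPM in LKO, with a median of 0.06 and 15 of 42 lower, none called. On the high-fat diet the sums of 264, 270, 282 and 265 CPM in flox and 264, 239, 245 and 285 CPM in LKO overlapped, with a median of -0.08 (12 lower, 9 higher).

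Most of that signal came from intervals near Klrb1c, which encodes the NK1.1 receptor, and none of these lay inside the gene. The nearest was 10.3 kb away on chow and 10.2 kb away on the high-fat diet, so their assignment rests on distance alone. Summed, they held 216, 207 and 240 CPM in chow flox and 208, 189 and 211 CPM in LKO (log2 fold change -0.15, SE 0.09, adjusted p = 0.716). In high-fat livers they held 183, 187, 190 and 182 CPM in flox and 183, 160, 161 and 199 CPM in LKO (-0.08, SE 0.08, adjusted p = 0.793).

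The chow difference was uneven across the Klrb1c intervals. At chr6:128759861-128760361 flox libraries held 23.6, 22.9 and 30.0 CPM and LKO libraries 18.9, 15.9 and 18.0 CPM, a log2 fold change of -0.53 (SE 0.15, adjusted p = 0.423). At chr6:128798646-128799146 the values were 25.1, 26.2 and 32.1 CPM in flox and 20.4, 20.2 and 19.2 CPM in LKO (-0.48, SE 0.14, adjusted p = 0.43). The most open interval, chr6:128764107-128764607, differed by 0.05 (SE 0.11). Groups did not overlap at the first pair of positions and overlapped at the last. They also did not overlap at chr6:128799249-128799749, where the log2 fold change was -0.17. Over all chow intervals 11.7% had groups that did not overlap.

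Eomes and Tbx21 encode the T-box factors that drive NK and cytotoxic T cell differentiation. Eomes summed over 3 intervals to 29.5, 33.9 and 24 CPM in chow flox and to 24.2, 32.6 and 28.3 CPM in LKO (log2 fold change -0.06, SE 0.15). With high-fat feeding it held 21.5, 24.7, 28.3 and 22.8 CPM in flox and 20.8, 21.6, 19.8 and 30.3 CPM in LKO (-0.08, SE 0.14). LKO 4 was above all other high-fat libraries, and the remaining LKO libraries were at or below most of the flox range.

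Tbx21 held 4.64, 5.46 and 2.97 CPM in chow flox and 3.12, 5.71 and 4.21 CPM in LKO (log2 fold change -0.03, SE 0.30). The level of its chow interval was low, above that of 11% of all chow intervals. In the high-fat table its 2 intervals held 8.99, 7.02, 9.55 and 9.79 CPM in flox and 8.26, 9.15, 6.79 and 7.83 CPM in LKO (-0.14, SE 0.18). The genotypes overlapped in both diets.

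Prf1, encoding the pore-forming protein perforin, had log2 fold changes of -0.18 (SE 0.22) on chow and 0.03 (SE 0.11) on the high-fat diet. Its sums were 18.6, 12.1 and 13.8 CPM in chow flox and 14.9, 15.1 and 10.1 CPM in LKO. Under the high-fat diet they were 23.6, 25.2, 30.5 and 25.5 CPM in flox and 25.4, 23.5, 32.4 and 25.9 CPM in LKO. Neither diet separated the genotypes.

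The granzyme gene Gzmb had 1 interval, 42.1 kb away and on chow only, with 2.94, 4.32 and 2.94 CPM in flox and 2.34, 3.89 and 2.27 CPM in LKO (log2 fold change -0.30, SE 0.29, and -0.12 without flox 2). Il2rb, the shared beta chain of the interleukin-2 and interleukin-15 receptors, held 6.79, 5.52 and 4.53 CPM in chow flox and 4.90, 5.14 and 4.66 CPM in LKO (-0.22, SE 0.22, and -0.03 without flox 1). Among high-fat mice it held 11.2, 12.9, 10.8 and 11.6 CPM in flox and 10.5, 11.1, 12.9 and 9.98 CPM in LKO (-0.07, SE 0.15). Ccl5, a chemokine of cytotoxic lymphocytes, differed by -0.04 (SE 0.14) and -0.06 (SE 0.14). None of these genes passed the threshold.

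**Figure D2:**
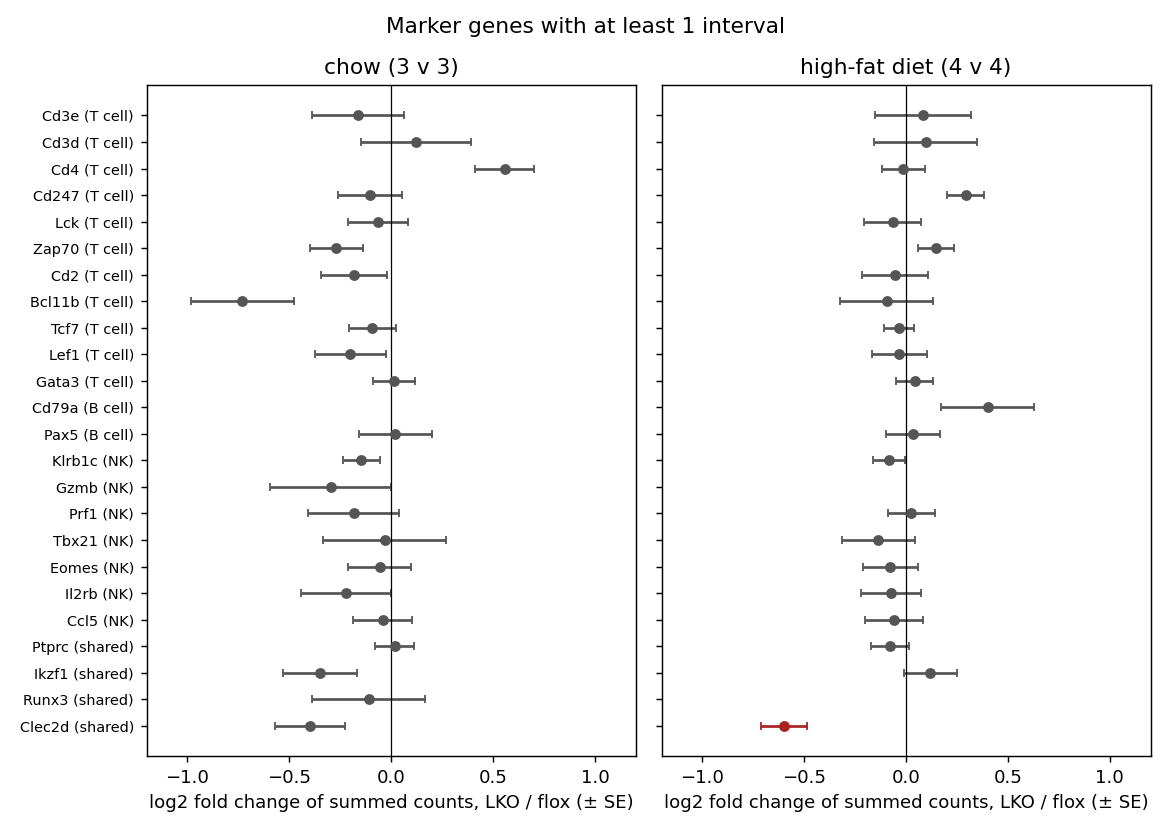
Log2 fold change of summed counts, LKO over flox, with its SE (horizontal axes) for each marker gene with at least 1 interval (rows) in the chow and the high-fat tables, with genes past the adjusted threshold of 0.05 in red. On chow no gene passed, with Cd4 at 0.56 and Bcl11b at -0.73 farthest from 0, and on the high-fat diet Clec2d alone passed, at -0.60.

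Among the genes shared by lymphoid classes, Ptprc (CD45, the phosphatase of all leukocytes) had overlapping groups on both diets. It summed to 37.1, 40.5 and 34.9 CPM in chow flox and to 38.7, 40.0 and 36.5 CPM in LKO (log2 fold change 0.02, SE 0.10). Of its 4 chow intervals 1 lay inside the gene, and 3 were lower in LKO (-0.28 to -0.17). The other, 34.2 kb away and the most open, was higher without overlap (0.36, SE 0.15, edgeR adjusted p = 0.705). On the high-fat diet the sums were 33.8, 33.9, 44.0 and 38.4 CPM in flox and 35.4, 36.3, 35.4 and 35.2 CPM in LKO (-0.08, SE 0.09). The LKO values lay within the flox range in the high-fat group.

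Ikzf1, encoding the lymphoid factor Ikaros, had 4 intervals inside the gene, of which 1 covers the RefSeq window. They summed to 23.5, 35.1 and 21.5 CPM in chow flox and to 21.7, 22.8 and 18.9 CPM in LKO (log2 fold change -0.35, SE 0.18, adjusted p = 0.716), the highest value being the flox library numbered 2. Without that library the log2 fold change was -0.12. The interval over the window, chr11:11685442-11685942, held 8.11, 10.02 and 6.49 CPM in flox and 5.55, 5.77 and 5.48 CPM in LKO (-0.54, SE 0.20, adjusted p = 0.653). In high-fat livers the gene's sums were 22.0, 20.3, 31.4 and 20.05 CPM in flox and 27.0, 24.5, 26.4 and 23.9 CPM in LKO (0.12, SE 0.13). Runx3, a factor of cytotoxic lymphocytes, differed by -0.11 (SE 0.28) over 2 chow intervals.

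Clec2d had more intervals than any other member in both tables. It encodes the lectin-like surface protein Clr-b, a ligand of inhibitory NKR-P1 receptors on NK cells, and is known to be made by many blood cells and other cells, so it marks no single lymphocyte class. The gene spans chr6:129180615-129186535 (5.92 kb) and received 27 of the 99 member intervals on chow and 25 of the 97 on the high-fat diet. The median level of these intervals was 21.3 CPM on chow and 7.25 CPM on the high-fat diet. Their mean level was 25.5 and 8.002 CPM per interval, below the 26.5 and 20.1 CPM of the Klrb1c intervals. Its openness was spread along the gene: in chow floxed livers the start held 51.5 ± 11.9 CPM and the interval at the end of the gene 85.0 ± 14.6 CPM (SD, n = 3).

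With high-fat feeding the summed level of the 25 intervals was lower in LKO. Flox libraries held 215, 290, 221 and 237 CPM and LKO libraries 178, 182, 148 and 130 CPM. Each LKO library lay below each flox library, with a log2 fold change of -0.60 (SE 0.11, edgeR adjusted p = 0.0257). This call was lost without LKO 3 (adjusted p = 0.118), LKO 4 (0.124), flox 2 (0.0573) or flox 4 (0.105), and the log2 fold change then ranged from -0.61 to -0.49.

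Most of the high-fat difference lay inside the gene and just after it. Counting only intervals with their midpoint inside the gene gave a log2 fold change of -0.77 (adjusted p = 0.000837). In the 9 intervals from chr6:129181597 to 129188285, a stretch chosen after the values were seen, the sum was 96.3, 134, 88.1 and 107 CPM in flox and 62.6, 63.8, 38.4 and 39.6 CPM in LKO. All 9 were lower, by -0.66 to -1.59 on the log2 scale, and 6 had groups that did not overlap. Of all 25 intervals 24 were lower and 8 did not overlap between groups, all 8 of them lower, where 5.3% of all intervals in the table did not overlap and 2.5% were also lower. Among the 72 intervals of other members 2 did not overlap.

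**Figure D3:**
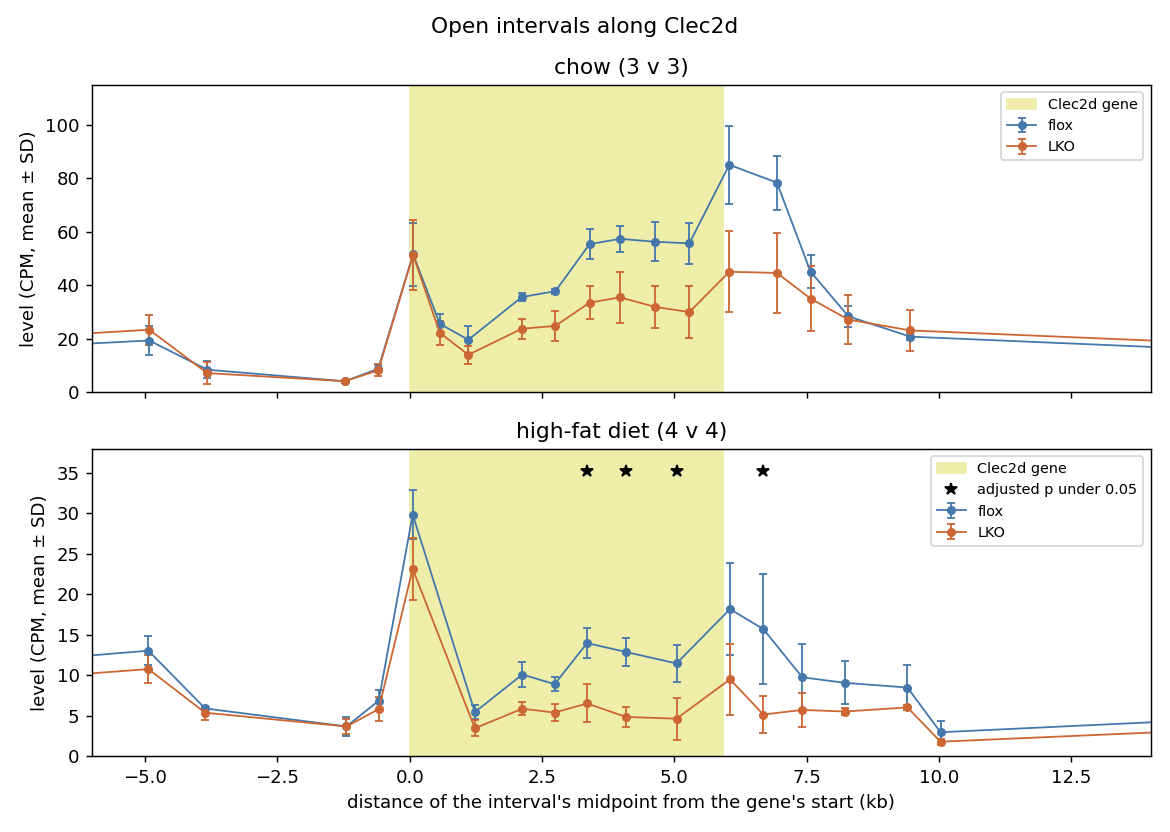
Level in CPM (vertical axes, mean with SD over libraries) of each interval against the distance of its midpoint from the start of Clec2d in kb (horizontal axis, cut to the surroundings of the gene), for flox in blue and LKO in orange, with the gene shaded and stars at intervals past the adjusted threshold. On both diets LKO lies below flox through the body and just past the end, and the 4 starred intervals are all in the high-fat panel.

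The lowest adjusted p was at chr6:129184452-129184952, in the gene body. It held 11.6, 15.3, 11.8 and 12.8 CPM in flox and 4.08, 6.62, 4.18 and 4.55 CPM in LKO. The means of 12.9 ± 1.71 and 4.85 ± 1.19 CPM (SD, n = 4 each) gave a log2 fold change of -1.40 (SE 0.20, edgeR adjusted p = 0.000292). Leaving out any 1 library kept the adjusted p at 0.00284 or below.

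At chr6:129187048-129187548, 0.763 kb past the end of the gene, flox libraries held 9.78, 25.5, 13.3 and 14.2 CPM and LKO libraries 6.12, 7.72, 2.48 and 4.29 CPM. The log2 fold change was -1.59 (SE 0.26, adjusted p = 0.00132), the largest of the members, and flox 2 was far above the other flox libraries. The body interval chr6:129183718-129184218 held 13.4, 16.8, 12.9 and 12.8 CPM in flox and 9.87, 6.07, 4.44 and 5.68 CPM in LKO (-1.09, SE 0.20, adjusted p = 0.00511). No LKO library reached a flox library at either position, and both calls remained with any 1 library left out (highest adjusted p 0.0168 and 0.0347).

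The fourth called interval, chr6:129185408-129185908, held 8.43, 13.5, 10.9 and 13.0 CPM in flox and 6.22, 7.28, 3.40 and 1.64 CPM in LKO. Its log2 fold change of -1.28 (SE 0.26) had an adjusted p of 0.0118, and it no longer passed without LKO 3 (0.066), LKO 4 (0.058), flox 2 (0.0576) or flox 4 (0.0689). Reads per library in the 4 called intervals numbered from 13 to 262, so counting error is part of the spread.

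**Figure D4:**
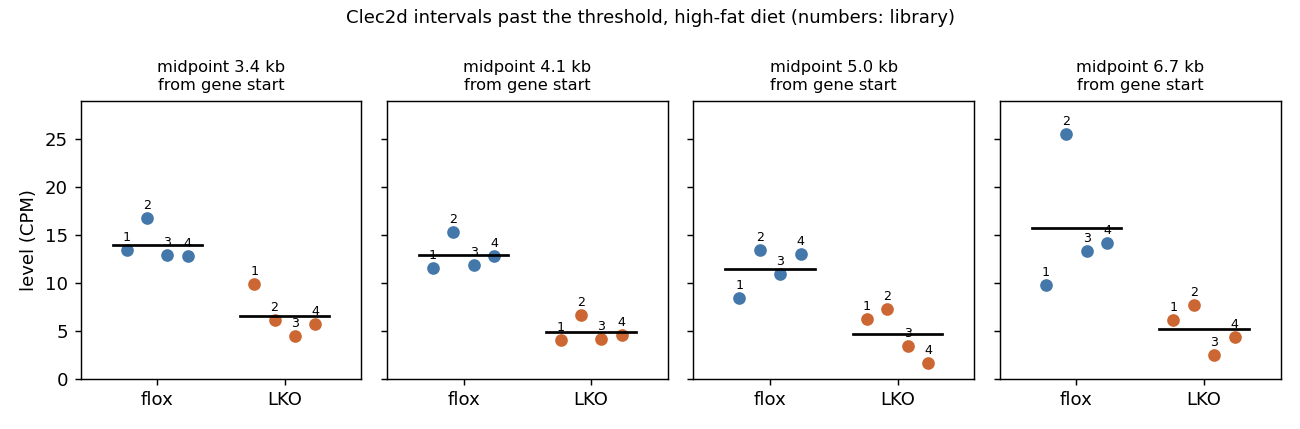
Level in CPM (vertical axis, from 0) of the 4 Clec2d intervals called on the high-fat diet, with 1 point per library labelled by its number and bars for group means. In each panel all 4 LKO points lie below all 4 flox points, and flox 2 is the highest flox point in every panel.

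The start of the gene differed less. The promoter interval chr6:129180422-129180922 held 30.6, 29.4, 33.4 and 26.0 CPM in high-fat flox and 28.3, 22.9, 22.1 and 19.2 CPM in LKO. Its log2 fold change of -0.36 (SE 0.13) did not pass (adjusted p = 0.235), and LKO 1 overlapped the flox libraries. The 7 intervals before the start differed by between -0.52 and -0.01 and the 8 farther after the gene by between -0.73 and 0.06, with none called.

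On chow the same stretch, chosen after the values were seen, had lower values in LKO without a call by edgeR fitted without a block. With the library number as a block 5 Clec2d intervals were called, at log2 fold changes of -0.95 to -0.74. That block was not planned, and the numbers are not known to pair libraries. The 11 intervals from chr6:129180934 to 129188440 summed to 603, 531 and 521 CPM in flox and to 443, 297 and 278.5 CPM in LKO. All 11 were lower, by -0.20 to -0.92 on the log2 scale, and 8 had groups that did not overlap, but their adjusted p ranged from 0.204 to 0.816. The most open interval, chr6:129186405-129186905 at the gene's end, held 102, 77.9 and 75.4 CPM in flox and 62.5, 37.7 and 34.9 CPM in LKO (-0.92, SE 0.21, adjusted p = 0.278). LKO 1 was the highest LKO library there, as it was in the stretch as a whole.

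Outside that stretch most chow intervals were higher in LKO. As its bounds were set after the values were seen, the contrast between inside and outside is no test. The promoter interval chr6:129180429-129180929 held 57.4, 37.9 and 59.3 CPM in flox and 65.9, 40.1 and 47.9 CPM in LKO (log2 fold change -0.01, SE 0.20). Of 7 intervals before the start 5 were higher in LKO, and of 8 farther after the gene 7 were, by at most 0.49 on the log2 scale and with no call. Over all 27 intervals the gene therefore summed to 834, 711 and 795 CPM in flox and to 768, 491 and 538 CPM in LKO (-0.40, SE 0.17, adjusted p = 0.716), with LKO 1 inside the flox range. Across the members, 19 of 99 chow intervals had groups that did not overlap, against 11.7% of all intervals, and 9 of these were at Clec2d, of which 8 were lower (6.04% of all intervals were lower without overlap). Among the 72 intervals of other members 10 did not overlap.

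The size of the LKO difference was compared between diets on intervals present in both tables with at least 50% overlap. None of the 77 matched member intervals passed (edgeR interaction test, lowest adjusted p 0.363), against 0.183% of 73945 matched intervals. An unadjusted p under 0.05 was found for 13 of the 77 and for 7.44% of all matched intervals. DESeq2 called 0 of the 77 (0.383% of all) and limma voom 1 (0.707% of all). At the Clec2d body interval with the lowest high-fat adjusted p, the high-fat minus chow difference was -0.69 on the log2 scale (SE 0.25, adjusted p = 0.453). For Cd247, at chr1:165817184-165817684, it was 0.92 (SE 0.30, adjusted p = 0.363), with 0.50 on the high-fat diet and -0.38 on chow. Limma voom called this Cd247 interval alone.

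The diets were not tested against each other, because their intervals were counted in separate tables. In floxed livers the matched Clec2d interval at the gene's end held 85.0 ± 14.6 CPM on chow (SD, n = 3) and 18.2 ± 5.66 CPM on the high-fat diet (SD, n = 4), a ratio of 4.68. The median ratio was 1.76 over 22 matched Clec2d intervals, 1.18 over 55 of the other members and 1.07 over all matched intervals, most of which lay between 0.642 and 1.81. The tables were scaled separately, so these ratios set levels side by side and carry no test. The 12 h fast is stated for the high-fat mice only, and their libraries were shallower. In these ratios and in the interaction test, diet cannot be told apart from fast or depth.

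Further genes of the same cell types gave few calls. Of 24 other T cell genes 19 had intervals in the chow table (81) and 20 in the high-fat one (98), with none called. For 19 other B cell genes, 15 had intervals in each table (76 and 79), again with none called. Among 20 other NK genes, 10 had 42 intervals on chow with none called. The 15 with 47 intervals on the high-fat diet had 1 called, which was higher in LKO. Over all high-fat intervals 0.751% were called, with 474 of 105801 called higher.

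The called interval of the other NK genes, chr1:164896427-164896927, lies 35 kb from Xcl1, which encodes a chemokine of NK and cytotoxic T cells. It held 5.62, 2.63, 4.52 and 4.49 CPM in flox and 8.58, 8.16, 10.6 and 9.85 CPM in LKO (log2 fold change 1.11, SE 0.22, edgeR adjusted p = 0.00945). The groups did not overlap, which held for 5.3% of all high-fat intervals. The other 4 intervals assigned to Xcl1 differed by between -0.37 and 0.19 and were not called.

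Markers of other liver cells were counted beside these values. Hepatocyte genes summed to 5607 to 7496 CPM in chow flox and 5238 to 6044 CPM in LKO. An interval at Alb was called higher, the only 1 of 88203 chow intervals called in that direction. Only the LKO mice carried the Albumin-Cre transgene, and a part of its reads in the Alb intervals was not tested. On the high-fat diet the hepatocyte sums were 3390 to 5976 CPM in flox and 3290 to 4515 CPM in LKO. There 37 of their 391 intervals were called lower and 1 higher, against 0.303% of all intervals called lower. Kupffer cell and macrophage genes summed to 435 to 467 CPM in chow flox and 357 to 388 CPM in LKO, and to 476 to 538 and 534 to 579 CPM on the high-fat diet, with no interval called. Sinusoidal endothelial genes summed to 662 to 671 CPM in chow flox and 599 to 644 CPM in LKO, with 53 of 67 intervals lower and none called. On the high-fat diet they summed to 746.5 to 843 CPM in flox and 719 to 821 CPM in LKO, with 53 of 104 lower and none called. Dendritic cell sums overlapped on chow. On the high-fat diet they were 245 to 257 CPM in flox and 235 to 244 CPM in LKO, with none called. Neutrophil, stellate and biliary sums overlapped between genotypes in both diets. The Kupffer sums of LKO libraries lay below those of flox libraries on chow and mostly above them on the high-fat diet. The part of hepatocytes, Kupffer cells, endothelium or other blood cells in the Clec2d difference was not tested.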

How the data were processed

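The authors deposited 1 table per diet of whole-number read counts per 501 bp interval and library, in mm10 coordinates per the labels. The submitters' processing notes name MACS2 2.2.7.1, Bowtie2 2.4.2, HOMER 4.11, Trim Galore 0.6.7, ChIPseeker, DESeq2 and bedtools, with no roles. How duplicates and the transposase offset were treated is not stated there. Intervals were selected on the same libraries that are compared. Counts were fitted per table with edgeR 4.0.16 in R 4.3.3 (TMM, filterByExpr, quasi-likelihood test, Benjamini-Hochberg adjustment over all intervals or all genes at 0.05), after tests on simulated data. CPM values use TMM library sizes and positions are 1-based. DESeq2 1.42.0, limma 3.58.1 (voom with quality weights), other scalings, filters, gene distances and libraries left out were alternatives. The members and lists were chosen with earlier results of these data known. Every member is accounted for, and values per library are given for called intervals and for the members of each class with the highest level or the largest difference. Deviations of same-numbered chow libraries had correlations of 0.184, 0.533 and 0.189. Differently numbered pairs ran from -0.376 to 0.278, so only the pair numbered 2 stood apart. The labels tie no number to a shared litter or day. Sequences come from RefSeq, where 25 of the 34 members matched a promoter window.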

Additional observations from a re-analysis of the deposited data

Results flagged for a closer look

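Among 44 gene and group combinations of 4 high-fat libraries, 4 had a library far from the others by Dixon's test, where chance flags about 1 in 20. Cd4 in flox 2 held 34.1 CPM against 26.7 to 27.4 CPM in the other flox libraries. Cd2 in LKO 3 held 13.7 CPM against 10.6 to 11.1 CPM in the other LKO libraries. Eomes in LKO 4 held 30.3 CPM against 19.8 to 21.6 CPM. Ptprc in LKO 2 held 36.3 CPM against 35.2 to 35.4 CPM, a gap of about 1 CPM that stands out only because the other LKO libraries were nearly equal. None of these genes was called.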

How the results depend on the processing

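The calls of members depended on the tool and on single libraries. On chow the count of member intervals past the threshold was 0 by edgeR, 7 by DESeq2, 3 by limma voom and 5 with a replicate block by column number, and 0 with each library left out. Over all 88203 chow intervals edgeR called 20, DESeq2 544, limma voom 677 and edgeR with the block 126. On the high-fat diet it was 4, with 3 to 7 over the libraries left out in turn and 7 without LKO 1 and flox 3 together, and 6 with a replicate block. Both counts of 7 are 6 Clec2d intervals and 1 Cd247 interval that was higher in LKO (0.70 without flox 3, 0.75 without both). Over all high-fat intervals, calls numbered 795, then 1420 with the block and 1883 without both libraries, and genes 53, 358 and 309. The count of genes was 1, with 0 to 1 over libraries left out, 2 with the replicate block and 2 without LKO 1 and flox 3, Cd247 being the gene added (adjusted p = 0.049 with the block). Same-numbered high-fat libraries had correlations of 0.0676, 0.131, 0.177 and -0.0105, and differently numbered ones ran from -0.183 to 0.148. In neither diet are the numbers known to pair libraries. The difference between diets gave 0 intervals and 1 by limma voom. Differences near 0 changed sign. With single chow libraries left out, log2 fold changes ran from -0.274 to 0.0246 for Cd247, -0.188 to 0.0517 for Eomes, -0.101 to 0.0886 for Gata3, -0.144 to 0.214 for Pax5, -0.312 to 0.0387 for Prf1, -0.0409 to 0.0702 for Ptprc, -0.261 to 0.158 for Tbx21 and -0.178 to 1.84e-05 for Tcf7. In the high-fat table they ran from -0.229 to 0.0417 for Bcl11b, -0.0475 to 0.0881 for Cd4, -0.0116 to 0.108 for Gata3, -0.0153 to 0.0874 for Pax5, -0.0677 to 0.101 for Prf1 and -0.122 to 0.00214 for Ptprc. Chow Gata3 was -0.0255 by limma voom and -0.0946 without both libraries numbered 2, and chow Ptprc -0.30 for intervals within 10 kb or inside the gene. High-fat Cd4 was 0.000245 by limma voom and 0.000603 with library totals only. Without LKO 1 and flox 3, high-fat values were 0.136 for Bcl11b, 0.052 for Eomes, -0.0257 for Pax5 and 0.0107 for Ptprc. The causes were not tested. Low counts limit these intervals: reads per library in member intervals started at 42 in the chow table and 11 in the high-fat table.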
